A study of Mus musculus with 2 samples.

Results

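Immediate-early genes are switched on within minutes of a stimulus, from factors already present in the cell, and heat-shock genes encode chaperones that keep proteins folded. The set described here held 27 immediate-early genes, from Fos to Maff, and 9 heat-shock genes, from Hspa1a to Hspd1, together 36 of the 22401 features of the UMI tables. The genes were taken by name, through their Ensembl mouse identifiers, and all 36 had UMIs in both libraries. Growth factors, stretch, shear flow and cell stress act through MAP kinases on serum response factor and its partners, which switch on Fos, Egr1 and Jun. Their products form the AP-1 and EGR transcription factors, while Dusp1, Zfp36, Socs3 and others end the response. Heat-shock factor 1 binds repeats of the triplet GAA and its complement TTC in front of Hspa1a, Hspa1b and other chaperone genes, and Hspa8 is the constitutive member of the same chaperone family. Enzymatic dissociation of tissue is itself known to induce both groups, and no undissociated tissue was analysed here, so the part that handling had in any level was not tested.

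The data were single-cell RNA sequencing of whole mouse hearts at E11.5, with 1 library per genotype. Control embryos were Hand2fx/+ R26RmTmG/wt and carried no Cre, and H2CKO embryos were Nfatc1Cre/wt Hand2fx/fx R26RmTmG/wt, so that Hand2, a transcription factor gene, was deleted where Nfatc1-Cre acts, in the endocardium and the cells derived from it. All embryos shared at least 1 floxed Hand2 allele and 1 copy of the mTmG reporter, which switches a cell from Tomato to GFP once Cre has recombined it. The presence of Cre and the loss of Hand2 cannot be told apart. Embryos were kept on ice for about 3 hours, and hearts were dissociated for 5 min in TrypLE; how many embryos entered each library is not in the labels used here. With 1 library per genotype there was no replicate and no test, and every interval below covers counting error only.

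The control library held 14114 barcodes with 195825720 UMIs and the H2CKO library had 13885 with 201477256, and 8793 and 11534 cells were kept, 28 of whose barcodes occurred in both. Clusters formed without the 36 genes were named from marker genes: endothelial-like (120 control and 491 H2CKO cells), cardiomyocyte-like (1691 and 3161), mesenchymal-like (1636 and 1150), epicardial-like (692 and 221), erythroid-like (2717 and 4964) and white blood cell-like (75 and 113). Cluster 14 (253 and 262 cells, led by Stmn2, Wnt4, Klf2 and Nts) stayed unnamed by the naming rule and is treated apart. Its best-scoring marker list was the endothelial one, with 13 of 14 markers detected and a median log2 fold of 3.71 over all other cells. It stayed unnamed because its 10 leading genes held 1 marker of another list, the neural Stmn2, and 0 endothelial markers. It held endothelial markers at 3117 and 2448 CPM (UMIs per 1000000 UMIs of a group and library), mesenchymal markers at 4206 and 1941 and neural markers at 809 and 591. Klf2, a flow-responsive gene, was at 2133 and 2361 there. Hand2 itself was at 173 and 13.1 CPM in endothelial-like cells and at 256 and 7.46 in cluster 14, lower in the library labelled H2CKO. The H2CKO library was shallower per cell (medians of 16223 and 13430 UMIs), and the ratio of a gene between libraries was lower for longer gene bodies in each of these 7 groups of cells (Spearman rho across genes from -0.56 to -0.45). Markers of erythroid cells were higher in H2CKO in every non-erythroid group, for example at 11988 and 54890.3 CPM in mesenchymal-like cells, and median mitochondrial shares were higher too, at 4.72% and 7.03% in cardiomyocyte-like cells. The part of depth, gene length, erythroid RNA and mitochondrial share in the genotype ratios below was not tested beyond the alternatives given in the closing section.

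The promoters of 30 of the 36 genes were found in the RefSeq table for GRCm38.p6, as windows of 300 bases from 250 before to 50 after the start. The genes not matched were Egr1, Egr3, Ier2, Klf10, Myc and Hspa8. Heat-shock and immediate-early elements were searched on both strands in these and in all 32851 promoters. Heat-shock units were written GAANNTTC or TTCNNGAA, and rows of 3 such triplets, alternating and with the same spacing, were searched as well and contain the shorter units. For immediate-early genes the search took the CArG box of serum response factor, the cyclic AMP element TGACGTCA and the TATA sequence TATAAA. A unit of the form GAANNTTC stood in the promoters of 7 of the 8 heat-shock genes found (all but Dnajb1) and 2 of the 22 immediate-early genes found (Fosl2 and Jun), against 7.86% of all promoters; TTCNNGAA stood in 3 of the 8 (Hsph1, Hspe1 and Hspd1) and 1 of the 22 (Egr2), against 8.52% of all promoters. The row of 3 triplets was in Hsph1, Hspe1 and Hspd1 and in none of the 22, against 0.603% of all promoters. A CArG box stood in Egr2 and Zfp36 (1.63% of all), TGACGTCA in Dusp1, Btg2 and Maff (1.79% of all), and TATAAA in 6 of the 22 immediate-early genes (13.6% of all) and in no heat-shock gene found. Some genes have several listed starts, and a gene was counted where any window matched, while the shares of all promoters are per window. Per window, GAANNTTC was in 8 of the 13 heat-shock and 2 of the 28 immediate-early windows, TTCNNGAA in 4 and 1, and the row of 3 triplets in 4 and 0. The CArG box was in 5 immediate-early windows, all of Egr2 or Zfp36, and overlapping windows of neighbouring Egr2 starts held the same site. The Hsph1 windows likewise shared their row of 3 triplets, as did those of Hspe1 and Hspd1. Counts per window therefore exceed the number of separate sites. These matches describe letters only and say nothing of binding. The 250 bases before the start are printed for Hspa1a and Hspa1b because the 2 copies are near-identical there. Hspe1 is printed because Hspd1 reads away from the same stretch on the other strand. Fos, Fosb, Zfp36 and Dusp1 are printed as immediate-early genes whose levels are given below. Capitals mark every match to the motifs named, 5′ to 3′ on the gene's strand.
Hspa1a (chr17:34972157-34972406, minus strand): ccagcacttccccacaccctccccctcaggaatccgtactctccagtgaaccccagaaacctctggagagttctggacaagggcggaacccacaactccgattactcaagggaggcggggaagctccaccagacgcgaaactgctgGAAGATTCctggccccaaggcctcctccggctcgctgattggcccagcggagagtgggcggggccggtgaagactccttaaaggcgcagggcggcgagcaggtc
Hspa1b (chr17:34959239-34959488, minus strand): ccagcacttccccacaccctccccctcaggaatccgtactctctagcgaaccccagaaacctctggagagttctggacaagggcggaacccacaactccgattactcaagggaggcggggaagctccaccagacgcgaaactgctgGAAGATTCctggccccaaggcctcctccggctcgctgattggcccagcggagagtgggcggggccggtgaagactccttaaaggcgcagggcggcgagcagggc
Hspe1 (chr1:55087898-55088147, plus strand): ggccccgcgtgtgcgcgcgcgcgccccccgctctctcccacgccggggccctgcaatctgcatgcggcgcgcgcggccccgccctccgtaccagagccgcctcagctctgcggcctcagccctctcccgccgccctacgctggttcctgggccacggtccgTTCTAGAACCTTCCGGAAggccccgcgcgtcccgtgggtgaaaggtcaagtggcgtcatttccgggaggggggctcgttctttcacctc
Fos (chr12:85473640-85473889, plus strand): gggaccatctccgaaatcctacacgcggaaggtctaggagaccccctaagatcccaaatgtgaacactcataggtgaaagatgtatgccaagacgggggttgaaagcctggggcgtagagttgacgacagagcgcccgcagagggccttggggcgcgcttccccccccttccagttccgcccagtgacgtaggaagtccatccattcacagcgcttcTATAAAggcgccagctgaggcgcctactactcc
Fosb (chr7:19310046-19310295, minus strand): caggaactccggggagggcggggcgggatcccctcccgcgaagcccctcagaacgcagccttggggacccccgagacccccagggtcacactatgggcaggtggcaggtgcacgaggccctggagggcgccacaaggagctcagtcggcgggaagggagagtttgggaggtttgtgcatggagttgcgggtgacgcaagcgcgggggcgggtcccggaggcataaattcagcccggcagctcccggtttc
Zfp36 (chr7:28379229-28379478, minus strand): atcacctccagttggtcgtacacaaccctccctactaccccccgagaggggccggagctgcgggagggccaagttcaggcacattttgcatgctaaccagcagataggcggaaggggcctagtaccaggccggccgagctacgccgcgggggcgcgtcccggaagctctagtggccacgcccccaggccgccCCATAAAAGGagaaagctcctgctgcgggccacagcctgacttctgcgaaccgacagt
Dusp1 (chr17:26508473-26508722, minus strand): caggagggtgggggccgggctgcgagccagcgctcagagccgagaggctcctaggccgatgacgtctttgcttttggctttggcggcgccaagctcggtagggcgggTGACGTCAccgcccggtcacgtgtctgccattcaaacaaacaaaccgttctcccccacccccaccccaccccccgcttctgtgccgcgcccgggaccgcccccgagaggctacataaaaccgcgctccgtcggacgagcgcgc
The Hspa1a and Hspa1b stretches were identical at 247 of 250 bases. Both held 1 GAAGATTC, 104 bases before the start. The Hspe1 stretch held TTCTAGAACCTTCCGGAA, in which rows of 3 triplets overlap, starting 89 bases before its start, and shared 215 of its 250 bases with the stretch before 1 of the 2 listed Hspd1 starts. In Hsph1 the row of 3 triplets lay after the start in both listed windows. Fosb held none of the motifs in its window.

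Immediate-early transcripts were abundant in cluster 14 and white blood cell-like cells and sparse in red cells. Summed over the 27 genes, the levels in the control and the H2CKO library were 6102 and 5337 CPM in cluster 14, 4839.5 and 4107 in white blood cell-like, 3511 and 2877 in mesenchymal-like, 3284 and 2682 in epicardial-like, 2499 and 2258 in endothelial-like, 1528 and 1388 in cardiomyocyte-like and 262 and 279.7 in erythroid-like cells. The order of the 7 groups was the same in both libraries. In erythroid-like cells the 13 erythroid markers took up 662205 and 689701 CPM, which leaves fewer UMIs for every other gene, in thinned cells too. The part of this in the low levels there was not tested. Within the mesenchymal-like cells, cluster 4 (led by Car3, Hapln1 and Sox9) held 4070.1 and 3205 CPM and cluster 7 (led by Inhba and Tgfbi) 2846 and 2433, while the small cluster 19 held 2849 and 2977, higher in H2CKO. Of the 27 genes, 10 were highest in cluster 14 in both libraries, 4 in white blood cell-like cells in both, and 24 were lowest in erythroid-like cells in both. For each of the 27 the spread across the 7 groups was larger than its largest difference between the genotypes in any of them, on the log2 scale. That spread runs from the highest to the lowest group, which was the erythroid-like cells for those 24, so the outcome was largely set in advance. Without the erythroid-like cells the spread of Fosl2 in the H2CKO library was smaller than its largest difference between the genotypes. The Spearman rho between the libraries' levels over the 7 groups had a median of 0.93, from 0.32 for Gadd45g to 1.0 for Fos, Junb and Socs3, which is a description over 7 groups of 2 libraries.

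**Figure D1:**
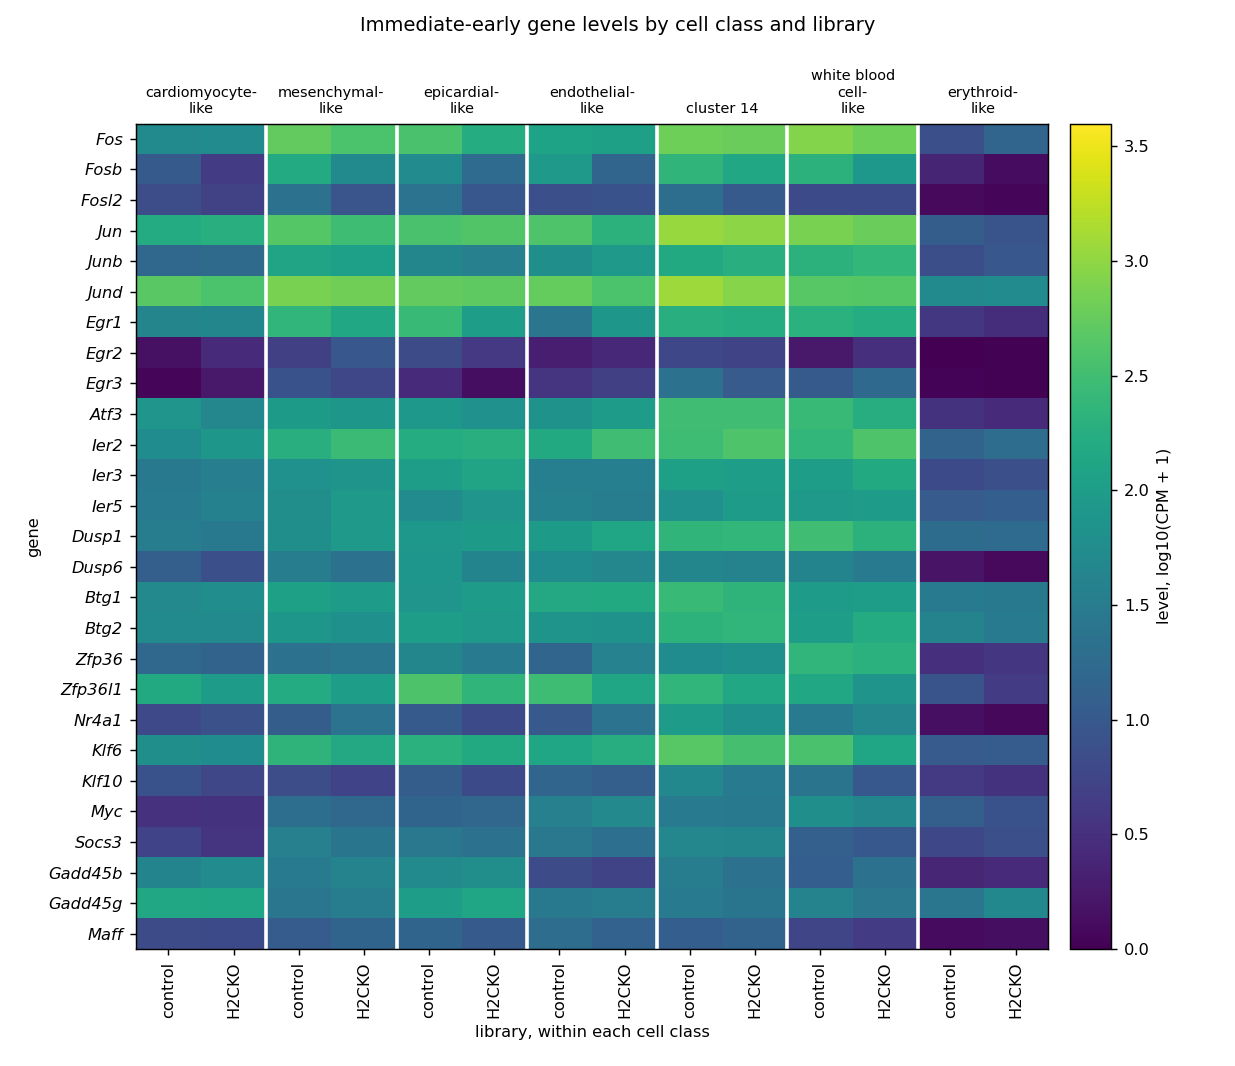
Levels of the 27 immediate-early genes (rows) in 7 groups of cells (column pairs, control then H2CKO), coloured by log10(CPM + 1). Jun and Jund are brightest in cluster 14, at 1109 and 1162 CPM in the control, and the erythroid-like columns are dark, with Fos at 6.46 and 13.9 CPM; each column is 1 library.

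The AP-1 genes encode leucine-zipper proteins that bind DNA in pairs. Each UMI stands for 1 captured 3′ end, so levels of different genes are set side by side without division by length. Fos (ENSMUSG00000021250, chromosome 12, 85473890 to 85477273 on GRCm38), which encodes c-Fos, a partner of the Jun proteins, stood in the control and the H2CKO library, in CPM, at 637 and 598 in cluster 14, 856 and 642 in white blood cell-like, 540.4 and 385 in mesenchymal-like, 366 and 169 in epicardial-like, 120.5 and 110.5 in endothelial-like, 49.8 and 53.5 in cardiomyocyte-like and 6.46 and 13.9 in erythroid-like cells. It was highest in white blood cell-like cells and cluster 14 in both libraries and far lower in cardiomyocyte-like cells. In cells thinned to 5000 UMIs, Fos was detected in 64.3% and 79.3% of cells in cluster 14, 70.8% and 68.9% of mesenchymal-like, 18.5% and 22.1% of cardiomyocyte-like and 2.78% and 5.94% of erythroid-like cells. The median depths before thinning were 12312 and 9402 UMIs in mesenchymal-like and 18308 and 13220 in erythroid-like cells, whose share was the lowest of the 4. Without thinning these shares were 70.8% and 83.6%, 81.7% and 78.6%, 56.6% and 51.3%, and 9.90% and 14.99%.

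Fosb (ENSMUSG00000003545, chromosome 7, 19302696 to 19310051), a close relative of Fos, stood at 224 and 140.4 in cluster 14, 207 and 81.9 in white blood cell-like, 157 and 52.0 in mesenchymal-like, 53.5 and 17.3 in epicardial-like, 85.7 and 13.9 in endothelial-like, 9.54 and 3.21 in cardiomyocyte-like and 1.34 and 0.337 in erythroid-like cells. It was lower in H2CKO in all 7 groups. Fosl2, which encodes Fra-2, was low throughout, at 19.2 and 9.40 in cluster 14, 5.49 and 5.42 in white blood cell-like, 21.9 and 7.94 in mesenchymal-like, 22.6 and 8.45 in epicardial-like, 6.55 and 7.04 in endothelial-like, 6.13 and 3.93 in cardiomyocyte-like and 0.236 and 0.132 in erythroid-like cells. Its level did not reach 25 CPM in any group.

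Jun (ENSMUSG00000052684, chromosome 4, 95049034 to 95052222) is the main partner of the Fos proteins and is itself a target of AP-1. Its levels were 1109 and 935 in cluster 14, 743 and 607 in white blood cell-like, 445 and 302 in mesenchymal-like, 362 and 421 in epicardial-like, 406 and 202 in endothelial-like, 165 and 179.5 in cardiomyocyte-like and 10.7 and 7.66 in erythroid-like cells. Cluster 14 held more than any other group in both libraries. Junb, which encodes another partner of the Fos proteins, stood at 154 and 182 in cluster 14, 203 and 243 in white blood cell-like, 126 and 106 in mesenchymal-like, 43.6 and 36.02 in epicardial-like, 62.0 and 86.7 in endothelial-like, 15.5 and 16.7 in cardiomyocyte-like and 6.44 and 8.54 in erythroid-like cells. Jund, the Jun gene that is expressed without a stimulus, was the most abundant immediate-early gene in both libraries in every group but cluster 14, where Jun was higher in H2CKO, and white blood cell-like cells, where Fos led. It stood at 1162 and 879 in cluster 14, 458 and 441 in white blood cell-like, 753 and 654 in mesenchymal-like, 550.1 and 507 in epicardial-like, 553 and 382 in endothelial-like, 474 and 377 in cardiomyocyte-like and 51.0 and 54.3 in erythroid-like cells. Atf3, a stress-induced partner of Jun, stood at 316 and 309 in cluster 14, 266 and 176 in white blood cell-like, 92.0 and 78.5 in mesenchymal-like, 81.4 and 64.7 in epicardial-like, 69.1 and 92.8 in endothelial-like, 74.4 and 45.6 in cardiomyocyte-like and 2.34 and 1.75 in erythroid-like cells, highest in cluster 14. Maff, a small Maf protein, stayed under 20 CPM in all 7 groups and passed the filter on low counts in none of them.

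Among the zinc-finger and nuclear receptor factors, Egr1 (ENSMUSG00000038418, chromosome 18, 34859823 to 34864984), a direct target of serum response factor and ELK proteins, stood at 184 and 167 in cluster 14, 201 and 166 in white blood cell-like, 233 and 140.1 in mesenchymal-like, 277 and 98.9 in epicardial-like, 24.7 and 78.9 in endothelial-like, 42.2 and 44.1 in cardiomyocyte-like and 2.79 and 1.92 in erythroid-like cells. In endothelial-like control cells it was under the level of every group but the erythroid-like cells. Klf6, a Krüppel-like factor, stood at 468 and 349.9 in cluster 14, 363 and 136 in white blood cell-like, 222 and 147 in mesenchymal-like, 200.2 and 153 in epicardial-like, 128 and 176 in endothelial-like, 61.9 and 55.5 in cardiomyocyte-like and 9.82 and 10.0 in erythroid-like cells, with its peak in cluster 14 in both libraries. Egr2 stayed below 10 CPM in the 7 groups and was at 4.61 and 12.8 CPM within mesenchymal-like cluster 4, and Egr3 reached 20.9 CPM in the control cells of cluster 14, its highest level. Over the 7 groups Nr4a1, an orphan nuclear receptor, ranged from 0.205 CPM to 96.7 CPM, the latter in the control cells of cluster 14. Over the same groups Klf10 ranged from 2.33 to 47.5 CPM and Myc, a growth regulator, from 2.31 to 61.9 CPM, lowest in cardiomyocyte-like and highest in white blood cell-like cells of the control.

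The remaining immediate-early genes act mainly as brakes or regulators of growth. Ier2, a nuclear protein gene of the first response, stood at 301 and 408 in cluster 14, 239.8 and 412 in white blood cell-like, 181 and 285 in mesenchymal-like, 167 and 186 in epicardial-like, 151 and 312 in endothelial-like, 55.6 and 80.4 in cardiomyocyte-like and 13.0 and 18.6 in erythroid-like cells. It was higher in H2CKO in all 7 groups. Dusp1, a phosphatase that switches off MAP kinases, stood at 222 and 239 in cluster 14, 311 and 206 in white blood cell-like, 61.0 and 88.03 in mesenchymal-like, 81.5 and 90.1 in epicardial-like, 90.2 and 130.3 in endothelial-like, 32.0 and 27.5 in cardiomyocyte-like and 17.4 and 17.2 in erythroid-like cells. Zfp36, which encodes tristetraprolin and speeds the decay of AU-rich messages, was highest by far in white blood cell-like cells, at 55.7 and 63.9 in cluster 14, 229.6 and 201 in white blood cell-like, 21.7 and 24.6 in mesenchymal-like, 43.2 and 28.3 in epicardial-like, 14.1 and 37.9 in endothelial-like, 15.2 and 12.9 in cardiomyocyte-like and 2.04 and 2.67 in erythroid-like cells. Zfp36l1, its relative, had another order, with its peak in epicardial-like cells, at 236 and 137 in cluster 14, 137 and 72.7 in white blood cell-like, 162 and 101 in mesenchymal-like, 390.4 and 229 in epicardial-like, 298 and 135 in endothelial-like, 152 and 96.8 in cardiomyocyte-like and 7.74 and 3.34 in erythroid-like cells. It was lower in H2CKO in all 7 groups, as were Fosb, Dusp6 and Klf10 and no other immediate-early gene. Measured against the median gene of each group, Fosb and Zfp36l1 were lower in all 7 groups, Dusp6, Klf10, Jun and Socs3 in 5 each, and Ier2, Ier3 and Ier5 were higher in all 7. Gadd45g and Gadd45b, growth-arrest genes, were the members whose levels in cardiomyocyte-like cells were above those of cluster 14, with Gadd45g at 142 and 130.02 CPM against 29.8 and 24.3. Dusp6, an ERK phosphatase, ranged up to 77.9 CPM, Socs3, an inhibitor of cytokine signalling, to 46.1, Btg1 to 264, Btg2 to 231, Ier3 to 152 and Ier5 to 93.8 CPM.

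Single cells differed widely in how many immediate-early genes they held. At 5000 UMIs per cell the median number of the 27 detected was 10 and 10 in cluster 14, 10 and 9 in white blood cell-like, 8 and 8 in mesenchymal-like, 8 and 7.5 in epicardial-like, 6 and 7 in endothelial-like, 5 and 5 in cardiomyocyte-like and 1 and 1 in erythroid-like cells. Cells with at least 10 of the 27 made up 50.8% and 60.3% of cluster 14, 33.9% and 27.1% of mesenchymal-like, 20.4% and 15.6% of endothelial-like and 2.50% and 2.97% of cardiomyocyte-like cells. Leaving aside the lowest and the highest 10% of cells, control cells of cluster 14 held 8 to 56 immediate-early UMIs of the 5000, against 3 to 13 in cardiomyocyte-like cells. Thinning left out 7 and 29 endothelial-like and 15 and 30 cluster 14 cells as too shallow.

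**Figure D2:**
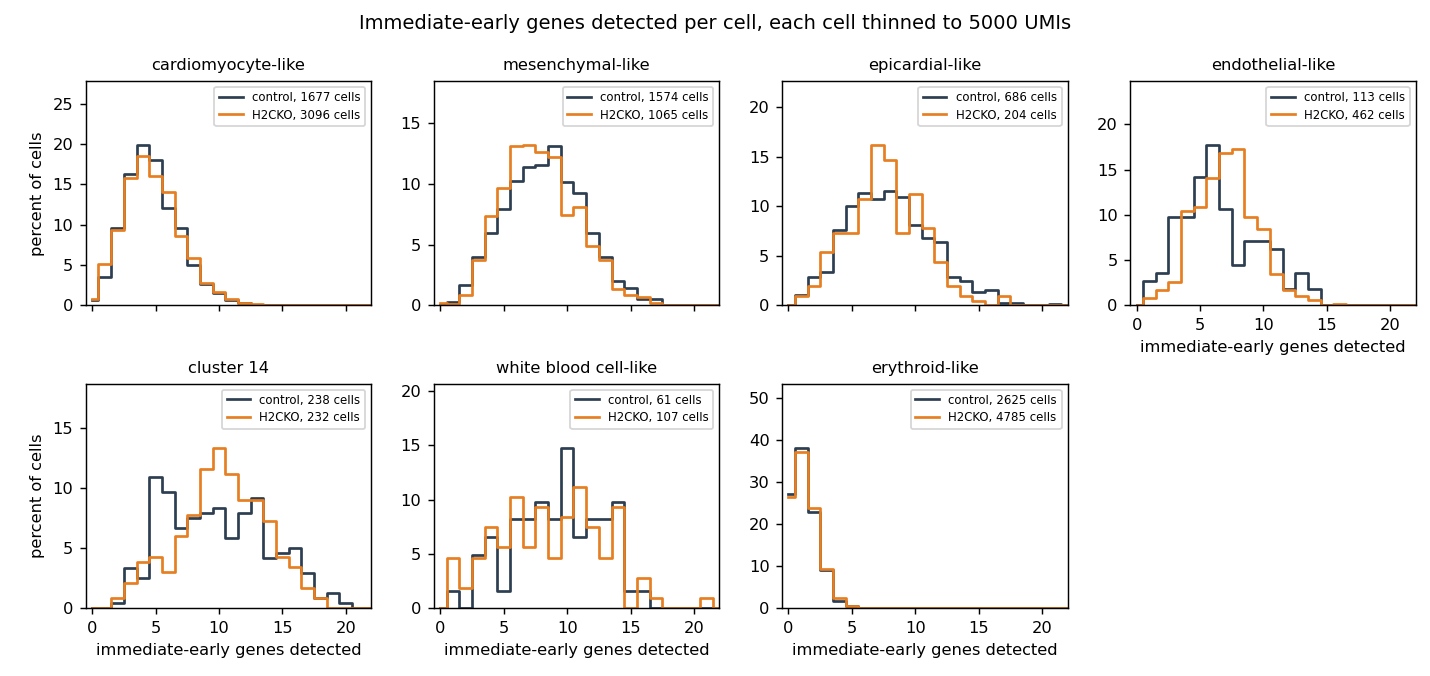
Number of the 27 immediate-early genes detected per cell (x axis) against the percent of cells (y axis) in 7 groups of cells, each cell thinned to 5000 UMIs, with the control in dark blue and H2CKO in orange. Erythroid-like cells pile up at 0 to 3 genes, with 27.2% and 26.5% holding none, while cluster 14 spreads around medians of 10 and 10.

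Detection of Egr1 and Jun was compared between cells with and without Fos. Among mesenchymal-like cells thinned to 5000 UMIs, Egr1 was detected in cells with and without Fos in 66.7% against 29.6% in the control and 54.6% against 27.5% in the H2CKO library. In epicardial-like cells the same shares were 66.6% against 25.9% in the control and 46% against 26.9% in the H2CKO library, and in cluster 14 they were 59.5% against 12.9% in the control and 48.4% against 12.5% in the H2CKO library. The share was higher with Fos in both libraries in all 3 groups. In erythroid-like cells, where few cells held Egr1, they were 0% against 1.18% in the control and 1.06% against 0.933% in the H2CKO library, the other way round in the control. Jun, in cluster 14, was detected with and without Fos in 98.7% against 71.8% in the control and 91.3% against 72.9% in the H2CKO library. For the chaperone gene Dnajb1 the shares lay closer together than those of Egr1 in mesenchymal-like cells and cluster 14. In mesenchymal-like cells they were 21.6% against 18.7% in the control and 25.5% against 17.2% in the H2CKO library. In cluster 14 they were 24.8% against 27.1% in the control and 31.0% against 29.2% in the H2CKO library. This contrast did not hold for every gene and group. Jun in mesenchymal-like H2CKO cells was at 73.4% against 65.6%, about as close as Dnajb1 there. In endothelial-like control cells Dnajb1 was at 24.3% against 15.8%, Egr1 at 10.8% against 5.26% and Ier2 at 45.9% against 47.4%. Across thinned cells the Spearman rho of summed immediate-early and summed heat-shock UMIs lay between -0.18 and 0.31 in the 14 combinations of group and library. These cells share a library and a depth, and the values are descriptions.

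Between the genotypes, summed immediate-early levels were lower in H2CKO in every group but the red cells, and the members did not move as a block. The ratio of the sums, H2CKO over control, was 0.875 (0.858 to 0.892) in cluster 14, 0.849 (0.820 to 0.878) in white blood cell-like, 0.819 (0.809 to 0.830) in mesenchymal-like, 0.817 (0.796 to 0.838) in epicardial-like, 0.904 (0.875 to 0.933) in endothelial-like, 0.909 (0.8998 to 0.917) in cardiomyocyte-like and 1.07 (1.05 to 1.09) in erythroid-like cells. The median gene was lower in H2CKO as well, with log2 ratios from -0.17 to -0.26. Relative to it, the log2 ratio of the immediate-early sum was 0.05 in cluster 14, -0.04 in white blood cell-like, -0.05 in mesenchymal-like, -0.09 in epicardial-like, 0.11 in endothelial-like, 0.03 in cardiomyocyte-like and 0.29 in erythroid-like cells, so the direction changed sign in cluster 14, endothelial-like and cardiomyocyte-like cells. The red cell clusters held unequal numbers of each library's cells: cluster 11 held 791 control and 72 H2CKO cells and cluster 1 held 126 and 2083. Single genes are compared below by the log2 ratio of (H2CKO CPM + 5) to (control CPM + 5), among genes with at least 20 CPM and 20 UMIs in the higher library, here called measured. A gene is called past 2-fold where this ratio is at least 1 in size.

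Endothelial-like cells, a class in which the reporter was recombined in H2CKO, had immediate-early genes past 2-fold in both directions. Of 27 members 21 were measured, and 5 passed 2-fold, 3 of them higher (Egr1, Ier2, Zfp36) and 2 lower (Fosb, Zfp36l1) in H2CKO. Of all 6357 genes measured in these cells 9.91% passed 2-fold, 1.35% higher and 8.56% lower. The 2 lower members of 21 were thus near the share of all genes that were lower. The members' median log2 ratio was 0.04, against -0.26 for all measured genes. Fosb stood at 85.7 CPM (95% interval 73.3 to 99.6, 170 UMIs) in the control and 13.9 CPM (11.2 to 17.1, 89 UMIs) in the H2CKO library, a log2 ratio of -2.26 and a fold of 6.15 (4.73 to 8.05) lower. Those intervals did not overlap. Fosb was detected in 22.1% of thinned control and 4.76% of thinned H2CKO cells, beside 0.876% and 0.146% of erythroid-like cells. Zfp36l1 stood at 298 CPM (95% interval 275 to 324, 592 UMIs) in the control and 135 CPM (126 to 144, 861 UMIs) in the H2CKO library, a log2 ratio of -1.12. It stayed past 2-fold under 11 of 15 alternatives and was at -0.86 relative to the median gene.

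In the other direction, Egr1 stood at 24.7 CPM (95% interval 18.3 to 32.7, 49 UMIs) in the control and 78.9 CPM (72.1 to 86.1, 504 UMIs) in the H2CKO library, a fold of 3.19 (2.38 to 4.37) higher and a log2 ratio of 1.497. The control value rests on few molecules, since 6 of the 120 cells held 50% or more of them. Ier2 stood at 151 CPM (95% interval 135 to 169, 300 UMIs) in the control and 312 CPM (298 to 326, 1994 UMIs) in the H2CKO library, a fold of 2.06 (1.83 to 2.34) higher. Zfp36 stood at 14.1 CPM (95% interval 9.38 to 20.4, 28 UMIs) in the control and 37.9 CPM (33.2 to 43.0, 242 UMIs) in the H2CKO library, a fold of 2.68 (1.81 to 4.12) higher. Over the 15 alternatives the log2 ratio of Zfp36 ran from 0.12 to 1.43 and that of Ier2 from 0.41 to 1.34. Each was past 2-fold in 12 of the 15. Just inside the threshold lay Jun, lower in H2CKO with a log2 ratio of -0.99, and Nr4a1, higher with 0.96. Erythroid markers in these cells summed to 22870.3 and 41607 CPM, all 13 detected in both libraries. The 12 mesenchymal markers summed to 1712 and 558 CPM, 11 detected in the control and all 12 in H2CKO. The part of either in these ratios was not tested. When the class was drawn by each cell's own markers, or pooled with cluster 14, the Egr1 ratio had the opposite sign, with log2 values of -0.24 and -0.29, and the count of 5 became 2 (Fosb, Jun) and 1 (Fosb). The Nr4a1 ratio changed sign under both as well, to -0.83 and -0.86.

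**Figure D3:**
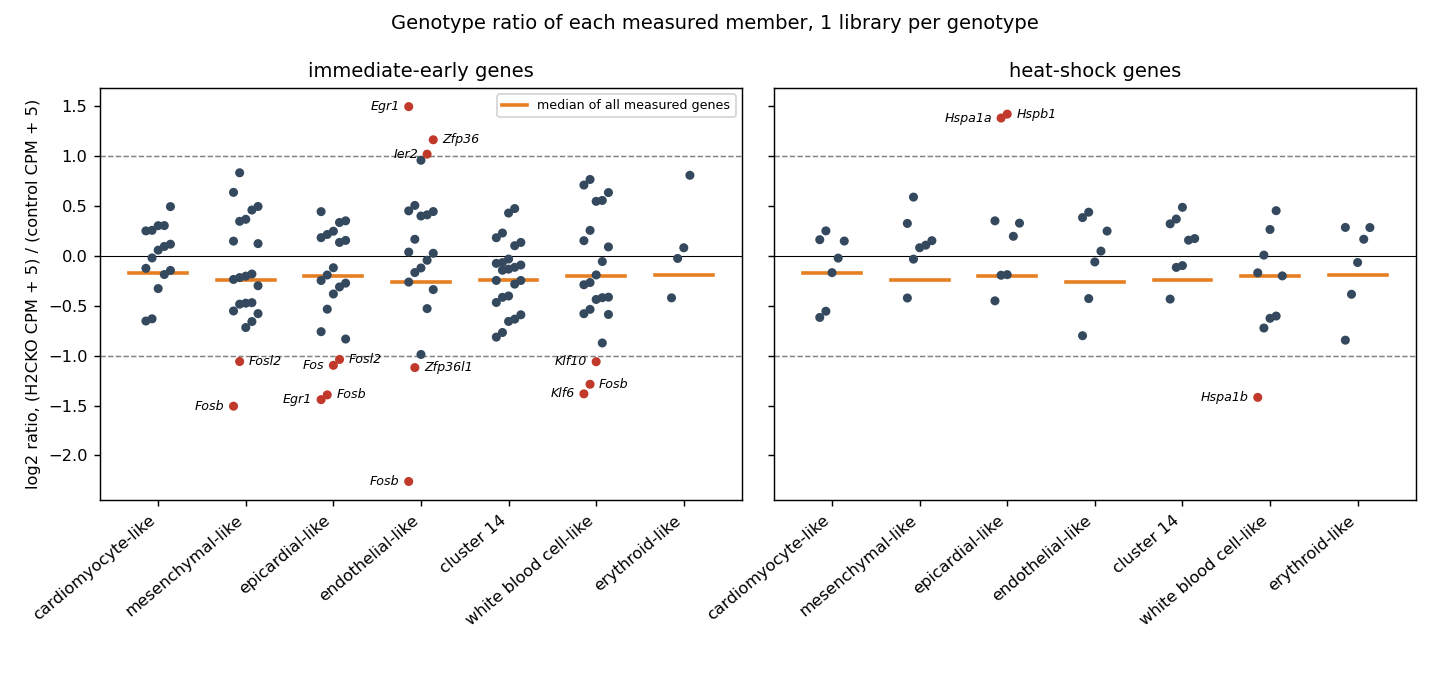
Log2 ratio of (H2CKO CPM + 5) to (control CPM + 5) for each measured immediate-early gene (left) and heat-shock gene (right) in 7 groups of cells; points are genes, orange bars the median of all measured genes, dashed lines 2-fold, and named red points lie past it. Fosb in endothelial-like cells is the lowest point at -2.26 and Egr1 there the highest at 1.497; each ratio compares 1 library with 1 library.

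Cluster 14, with the highest immediate-early levels of the heart cells here, had none of its 24 measured members past 2-fold, against 4.35% of all genes measured there (0.682% higher and 3.67% lower). Their median log2 ratio was -0.14, beside -0.24 for all genes, and 6 of 24 were above 0. Fosb was lower here as well, at 224 CPM (95% interval 210.0 to 239, 934 UMIs) in the control and 140.4 CPM (127 to 154, 433 UMIs) in the H2CKO library. Egr1 was close between the libraries, at 184 CPM (95% interval 171 to 197, 766 UMIs) in the control and 167 CPM (153 to 182, 516 UMIs) in the H2CKO library, and those intervals overlapped. Zfp36l1 was at 236 and 137 CPM, lower in H2CKO with a log2 ratio of -0.77. The mesenchymal markers given above for this cluster were lower in H2CKO too, and erythroid markers were higher, at 13882 and 53936 CPM. Their part was not tested.

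In mesenchymal-like cells 2 of the 22 measured immediate-early genes passed 2-fold, both lower in H2CKO, against 3.79% of all genes in either direction, 0.443% higher and 3.35% lower. The members' median log2 ratio was -0.23, beside -0.24 for all genes. Fosb stood at 157 CPM (95% interval 152 to 162, 3564 UMIs) in the control and 52.0 CPM (47.9 to 56.2, 615 UMIs) in the H2CKO library, a fold of 3.02 (2.77 to 3.29) lower. Fosl2 stood at 21.9 CPM (95% interval 20.1 to 24.0, 499 UMIs) in the control and 7.94 CPM (6.42 to 9.72, 94 UMIs) in the H2CKO library, a fold of 2.76 (2.21 to 3.48) lower. Both were lower within each main cluster of these cells, with log2 ratios of -1.51 in cluster 4 and -1.54 in cluster 7 for Fosb and -1.08 and -1.05 for Fosl2. In cluster 19 (41 and 76 cells) Fosb was at 22.6 and 35.7 CPM and Fosl2 at 12.9 and 8.41, both under the filter. Ier2 and Nr4a1 were on the other side, at log2 ratios of 0.64 and 0.83, under 2-fold. In cluster 4 Nr4a1 was at 12.5 and 30.9 CPM, a log2 ratio of 1.04. Erythroid markers summed to 11988 and 54890.3 CPM in these cells, and the class's own 12 mesenchymal markers to 7994 and 3871 CPM. Their part was not tested. Fosb passed 2-fold under all 14 alternatives run and Fosl2 under 6 of them, with a log2 ratio of -0.82 relative to the median gene. On that scale Nr4a1 was past 2-fold higher, at 1.07, so that 1 of the 2 members past 2-fold was lower (Fosb) and 1 higher.

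In epicardial-like cells 4 of the 21 measured immediate-early genes passed 2-fold, all lower in H2CKO, against 6.06% of all genes in either direction and 4.59% lower. Hand2 was at 125 and 113 CPM there. Fos stood at 366 CPM (95% interval 355 to 378, 4131 UMIs) in the control and 169 CPM (154 to 185, 459 UMIs) in the H2CKO library, a fold of 2.17 (1.97 to 2.40) lower. Egr1 stood at 277 CPM (95% interval 267 to 287, 3122 UMIs) in the control and 98.9 CPM (87.4 to 111, 269 UMIs) in the H2CKO library, a fold of 2.80 (2.47 to 3.18) lower. The intervals of the libraries did not overlap for either gene. Fosb was at 53.5 and 17.3 CPM, a log2 ratio of -1.39, and Fosl2 at 22.6 and 8.45 CPM, a log2 ratio of -1.04. Relative to the median gene, 2 of the 4 passed 2-fold (Fosb, Egr1). Jun was slightly higher in H2CKO, with a log2 ratio of 0.22, so the AP-1 genes did not move one way. Some markers of other cells were higher in this class in H2CKO. Erythroid markers summed to 11687 and 44747 CPM and all 12 cardiomyocyte markers, each detected in both libraries, to 3613 and 7081 CPM. Mesenchymal markers were lower, at 3424 and 2506 CPM, as were the class's own epicardial markers, at 3231 and 2660.3, and endothelial markers were at 154 and 151. Their part was not tested.

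Cardiomyocyte-like cells had few differences. None of the 15 measured immediate-early genes passed 2-fold, against 0.884% of all genes (0.177% higher and 0.708% lower), and the median log2 ratio was 0.06 beside -0.17. Their log2 ratios ran from -0.65 to 0.49. Within the cardiomyocyte-like clusters the summed level was 1425 and 1335 CPM in cluster 0, 1267 and 1208 in cluster 5, 2020.0 and 1724 in cluster 12, 2172 and 2273 in cluster 16 and 1319.6 and 839 in cluster 20, which held 3 H2CKO cells. The range over clusters 0, 5, 12 and 16 was wider than the difference between the genotypes within any of these 4. In erythroid-like cells 4 immediate-early genes were measured (Jund, Btg1, Btg2 and Gadd45g) and none passed 2-fold, against 8.12% of all genes (0.349% higher and 7.77% lower). White blood cell-like cells, with 75 control cells, had 3 of 22 measured members past 2-fold, all lower in H2CKO (Fosb, Klf6 and Klf10), against 9.23% of all genes in either direction, 1.42% higher and 7.81% lower. In this class all 6 platelet markers summed to 2495 and 788 CPM and all 12 cardiomyocyte markers to 3557 and 1028 CPM, each marker detected in both libraries, and their part was not tested.

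The reporter allowed a comparison inside the H2CKO library, between cells with at least 2 GFP UMIs and cells with none. In endothelial-like cells, 279 with GFP and 190 without, the summed immediate-early level was 2386 and 2052 CPM. None of 20 immediate-early and none of 7 heat-shock genes measured passed 2-fold, against 0.0722% of all genes. The widest difference among those measured was that of Fos, at 72.3 CPM (61.4 to 84.7) without and 133 CPM (122 to 145) with GFP. Egr1, Ier2 and Zfp36, the genes higher in the H2CKO library, were at log2 ratios of 0.30, 0.01 and 0.06 between these cells. Fosb, lower in the H2CKO library, was under the filter here, at 9.33 CPM (5.70 to 14.4) without and 17.1 CPM (13.2 to 21.7) with GFP. A cell without a GFP UMI may still have recombined.

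In mesenchymal-like cells, 327 with GFP and 742 without, none of 21 and 7 measured members passed 2-fold, against 1.37% of all genes, and Fos was at 325 CPM (313 to 338) without and 508 CPM (484 to 532) with GFP. Yet 96.6% of the cells with GFP and 39.5% of those without lay in cluster 4. Within cluster 4 (316 and 293 cells) Fos was at 475 CPM (450.1 to 501) without and 532 CPM (507 to 558) with GFP, and the summed immediate-early level was 3296 with and 3069.5 CPM without GFP. None of the 21 and 7 members passed 2-fold there, against 0.0532% of all genes. Hspb1 was at 229 CPM (218 to 240.2) without and 139.8 CPM (128 to 153) with GFP over all mesenchymal-like cells and at 118 CPM (106 to 131) without and 119 CPM (108 to 132) with GFP within cluster 4. In cluster 14 only 34 cells lacked GFP, against 221 with it, and 2 of 20 immediate-early genes (Atf3, Socs3) and 2 of 9 heat-shock genes (Hspa1a, Hspb1) were past 2-fold, all higher with GFP, against 10.0% of all genes. Hspb1 was at 118 CPM (78.4 to 170.4) without and 580.2 CPM (552 to 609) with GFP there, and Hspa1a had 0 UMIs without and 110 with GFP. The cells without GFP were shallower (medians of 6623 and 9682 UMIs), and 10% of the H2CKO cells of this cluster held 71.5% of its Hspb1 UMIs, a part that was not tested.

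**Figure D4:**
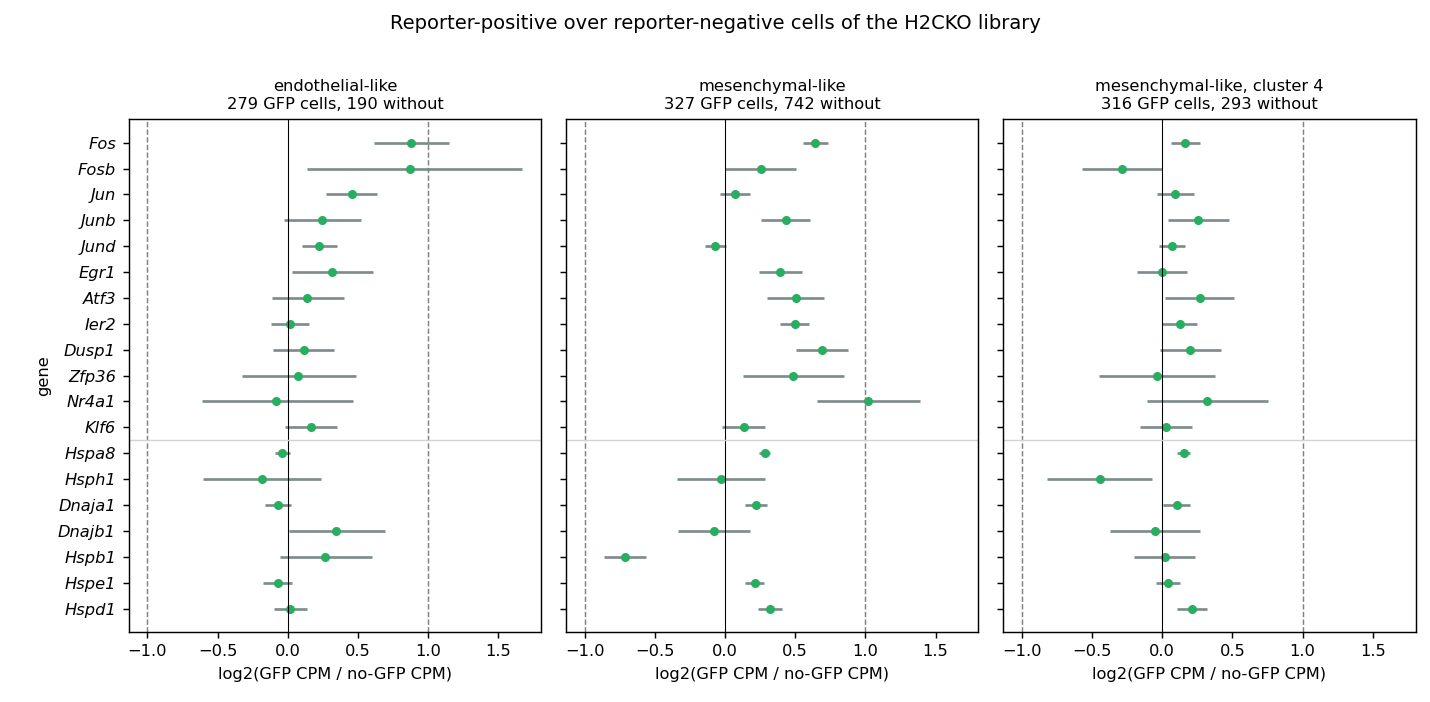
Log2 ratio of CPM, with no pseudocount, in cells with at least 2 GFP UMIs over cells with none, within the H2CKO library, for 12 immediate-early and 7 heat-shock genes (rows) in endothelial-like cells, mesenchymal-like cells and cluster 4 of the latter. Bars are 95% exact conditional intervals for counting error and dashed lines mark 2-fold; Fos, at 508 against 325 CPM in mesenchymal-like cells, lies near 0 within cluster 4, and Nr4a1, at 35.1 against 17.3 CPM in mesenchymal-like cells, was under 2-fold once 5 CPM were added to both.

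Heat-shock transcripts had another order of cell types, and their members differed in direction between the genotypes. Summed over the 9 genes, the levels in the control and the H2CKO library were 5683 and 5643 CPM in cardiomyocyte-like, 4703 and 5303 in white blood cell-like, 3731 and 4175 in cluster 14, 3564 and 3967 in endothelial-like, 3415 and 4105 in epicardial-like, 3148 and 4000.0 in mesenchymal-like and 733 and 718 in erythroid-like cells. The H2CKO sum was higher in 5 of the 7 groups, and relative to the median gene it was higher in all 7, by log2 values of 0.16 to 0.58. Without Hspa8 the sums of the other 8 genes were higher in 3 groups and lower in 4, with 1969.8 and 1804 CPM in endothelial-like, 2747 and 2621 in white blood cell-like and 2100.4 and 2135 in cluster 14 cells. With Hspa8 counted, the ratio of the sums was 1.27 (1.26 to 1.29) in mesenchymal-like, 1.20 (1.18 to 1.23) in epicardial-like and 0.993 (0.988 to 0.998) in cardiomyocyte-like cells. Hspa8 was the largest member in both libraries in every group but the cardiomyocyte-like cells, where Hspb1 was. The 9 genes varied less from cell to cell than the immediate-early genes did: leaving aside the same extremes, control cells held 10 to 26 of 5000 UMIs in cluster 14 and 18 to 38 in cardiomyocyte-like cells. The coefficient of variation over the control cells of cluster 14 was 0.35 for heat-shock and 0.71 for immediate-early UMIs.

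**Figure D5:**
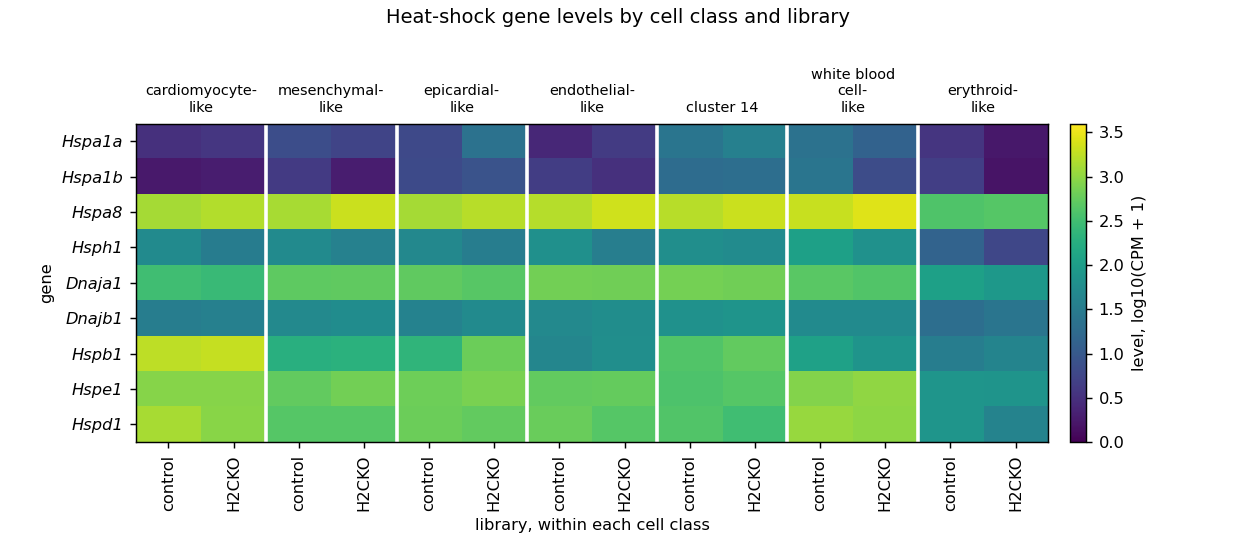
Levels of the 9 heat-shock genes (rows) in 7 groups of cells (column pairs, control then H2CKO), coloured by log10(CPM + 1), with 1 library per column. Hspb1 is brightest in cardiomyocyte-like cells, at 1741 and 1950.2 CPM, while the rows of the inducible genes Hspa1a and Hspa1b are dark, under 40 CPM throughout.

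Hspa1a (ENSMUSG00000091971, chromosome 17, 34969190 to 34972156) and Hspa1b (ENSMUSG00000090877, chromosome 17, 34956436 to 34959238), neighbouring copies of the stress-induced Hsp70 gene, were scarce. Hspa1a stood at 24.0 and 35.7 in cluster 14, 21.9 and 12.5 in white blood cell-like, 6.16 and 4.56 in mesenchymal-like, 5.23 and 21.7 in epicardial-like, 1.51 and 3.29 in endothelial-like, 2.15 and 2.74 in cardiomyocyte-like and 2.59 and 0.719 in erythroid-like cells. Hspa1b stood at 18.0 and 18.8 in cluster 14, 24.3 and 5.96 in white blood cell-like, 3.12 and 0.929 in mesenchymal-like, 5.50 and 7.35 in epicardial-like, 3.53 and 2.19 in endothelial-like, 0.735 and 0.915 in cardiomyocyte-like and 3.65 and 0.557 in erythroid-like cells. Both were highest in cluster 14 or white blood cell-like cells, and neither exceeded 40 CPM. Because the copies are near-identical in sequence, the counting could split or lose their reads, and the split between them is uncertain. Hspa8 (ENSMUSG00000015656, chromosome 9, 40800984 to 40810087), the constitutive Hsc70 gene, stood at 1631 and 2040.4 in cluster 14, 1957 and 2682 in white blood cell-like, 1365 and 2058 in mesenchymal-like, 1285 and 1616 in epicardial-like, 1594 and 2163 in endothelial-like, 1293 and 1541 in cardiomyocyte-like and 403 and 453 in erythroid-like cells. It was higher in H2CKO in all 7 groups, with log2 ratios from 0.17 to 0.59, none past 2-fold. Hspa8 and Hspe1 have processed copies elsewhere in the genome that may share their reads.

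Hsph1, which encodes the Hsp110 exchange factor of Hsp70, stood at 59.0 and 54.2 in cluster 14, 109.7 and 64.5 in white blood cell-like, 51.6 and 37.3 in mesenchymal-like, 47.0 and 33.1 in epicardial-like, 62.5 and 33.8 in endothelial-like, 51.5 and 31.9 in cardiomyocyte-like and 12.9 and 4.81 in erythroid-like cells. It was lower in H2CKO in all 7 groups, opposite to Hspa8. Dnaja1, an Hsp40 partner of Hsp70, stood at 705 and 659 in cluster 14, 483 and 419.7 in white blood cell-like, 502 and 531 in mesenchymal-like, 533 and 468 in epicardial-like, 680.1 and 652 in endothelial-like, 308 and 274 in cardiomyocyte-like and 110.3 and 83.4 in erythroid-like cells. Dnajb1, the stress-inducible Hsp40, stood at 64.6 and 72.6 in cluster 14, 51.7 and 52.1 in white blood cell-like, 48.6 and 54.7 in mesenchymal-like, 38.9 and 51.1 in epicardial-like, 47.9 and 57.9 in endothelial-like, 32.3 and 36.4 in cardiomyocyte-like and 19.1 and 24.5 in erythroid-like cells, higher in H2CKO in all 7 groups and by log2 ratios of at most 0.35. Neither Hsp40 gene passed 2-fold in any group.

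Hspb1 (ENSMUSG00000004951, chromosome 5, 135887919 to 135889563), a small heat-shock protein bound to the contractile apparatus and the cytoskeleton, had a strong cell-type pattern, at 414 and 537 in cluster 14, 112 and 72.1 in white blood cell-like, 185 and 199 in mesenchymal-like, 228 and 619 in epicardial-like, 44.4 and 59.5 in endothelial-like, 1741 and 1950.2 in cardiomyocyte-like and 32.9 and 41.1 in erythroid-like cells. In cluster 14 it was carried by few cells, since the highest 10% of cells held 68.4% of its UMIs in the control and 71.5% in H2CKO, and 1 H2CKO cell held 15.7%. Hspe1 and Hspd1, the mitochondrial Hsp10 and Hsp60 genes read from opposite strands around the stretch printed above, had like orders of cell types. Hspe1 stood at 398 and 449 in cluster 14, 844 and 1016 in white blood cell-like, 535 and 672 in mesenchymal-like, 646 and 742 in epicardial-like, 536 and 555 in endothelial-like, 894 and 881 in cardiomyocyte-like and 74.4 and 70.9 in erythroid-like cells. Hspd1 stood at 418 and 309 in cluster 14, 1100.2 and 978 in white blood cell-like, 452 and 442 in mesenchymal-like, 626 and 547 in epicardial-like, 594 and 440.5 in endothelial-like, 1360.0 and 925 in cardiomyocyte-like and 74.2 and 39.1 in erythroid-like cells. Both were high in cardiomyocyte-like and white blood cell-like cells and lowest in red cells. Hspd1 was lower in H2CKO in all 7 groups, while Hspe1 was higher in 5 of them. Relative to the median gene, Hspd1 was lower in 4 and Hsph1 in 6 of the 7. Hspd1 spans 10.4 kb and Hspe1 3.18 kb, and longer genes had lower ratios in every group. The part of length was not tested for this pair.

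Between the genotypes, 2 of the 8 heat-shock genes measured in epicardial-like cells passed 2-fold, both higher in H2CKO, against the 1.47% of all genes that were higher there. Hspb1 stood at 228 CPM (95% interval 219 to 237, 2569 UMIs) in the control and 619 CPM (589.8 to 649, 1684 UMIs) in the H2CKO library, a fold of 2.72 (2.55 to 2.89) higher. Hspa1a stood at 5.23 CPM (95% interval 3.98 to 6.75, 59 UMIs) in the control and 21.7 CPM (16.5 to 28.0, 59 UMIs) in the H2CKO library, a fold of 4.14 (2.84 to 6.05) higher. Hspb1 is also the heat-shock gene of cardiomyocyte-like cells, and the cardiomyocyte markers given above were 3613 and 7081 CPM in these epicardial-like cells, a part that was not tested. With doublets kept, neither gene passed 2-fold, at log2 ratios of 0.77 for Hspb1 and 0.67 for Hspa1a. Hspa1a was just above the filter of 20 CPM, and without the highest cell it was under that filter, at a log2 ratio of 1.36. None of the heat-shock genes measured passed 2-fold in endothelial-like cells (7 measured), cardiomyocyte-like cells (7), mesenchymal-like cells (7), erythroid-like cells (6) or cluster 14 (8), against 9.91%, 0.884%, 3.79%, 8.12% and 4.35% of all genes. With so few members, counts of 0 are near what these shares give. Their median log2 ratio was 0.05 in endothelial-like, -0.02 in cardiomyocyte-like, 0.11 in mesenchymal-like and 0.26 in epicardial-like cells, beside the all-gene medians given above. In white blood cell-like cells 1 of 9 passed 2-fold, Hspa1b, lower in H2CKO with 31 control and 11 H2CKO UMIs, against 7.81% of all genes lower there.

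Other genes of the same pathways are read beside the all-gene shares given above for each group, which were 9.91% in endothelial-like, 0.884% in cardiomyocyte-like, 3.79% in mesenchymal-like, 6.06% in epicardial-like, 8.12% in erythroid-like, 9.23% in white blood cell-like and 4.35% in cluster 14 cells. Of 31 further targets of the early response, 22 were measured in endothelial-like cells, 1 higher and 1 lower past 2-fold: Sgk1, a kinase gene, at 42.9 and 108 CPM, and Cebpb, a leucine-zipper factor, with a log2 ratio of -1.48. In mesenchymal-like cells 1 of 21 passed, the Notch target Hes1, higher at 158 and 372 CPM. None of 14 did in cardiomyocyte-like, 19 in epicardial-like or 21 in cluster 14 cells.

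Of 22 MAP kinase feedback genes and driving factors, 14 were measured in endothelial-like cells, where the nuclear phosphatase gene Dusp2 was higher at 55.0 and 165 CPM and Dusp4 lower with a log2 ratio of -1.18. In epicardial-like cells 2 of 14 passed, the ERK inhibitors Spry2 and Spred1, lower with log2 ratios of -1.01 and -1.22. Fos, Fosb and Egr1 were lower in the same cells.

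Of 31 other chaperones and heat-shock factors, Hspa4, an Hsp110 relative, was lower in endothelial-like cells at 385 and 164 CPM (1 of 27 measured) and in erythroid-like cells with a log2 ratio of -1.18 (1 of 18). Hspb7, a cardiac small heat-shock gene, was higher in epicardial-like cells at 11.4 and 58.1 CPM (1 of 28), where cardiomyocyte markers were higher too. Of 20 genes of the unfolded protein and integrated stress responses, 16 were measured in endothelial-like cells, none past 2-fold and 0 above 0, with a median log2 ratio of -0.44 against -0.26 for all genes and sums of 5018 and 3119 CPM. Their sum was lower in H2CKO in all 7 groups. The ratio of the sums, H2CKO over control, ran from 0.602 in white blood cell-like to 0.777 in mesenchymal-like cells, with 0.622 in endothelial-like cells. The median log2 ratios in endothelial-like cells were -0.15 for the further early targets, -0.39 for the MAP kinase list and -0.12 for the other chaperones. Pdia3, a folding enzyme of the endoplasmic reticulum, was lower past 2-fold in cardiomyocyte-like cells, at 402 and 193 CPM, and in cluster 14, with a log2 ratio of -1.16. In the smallest group, the white blood cell-like cells, 3 of 18 early targets passed 2-fold, Hes1 higher and Rhob and Sgk1 lower, as did 5 of 16 stress-response genes, against 9.23% of all genes there. Of those 5, Asns, an amino acid synthesis gene, was higher, and Hspa5, Hsp90b1, Pdia3 and Pdia4, folding genes of the endoplasmic reticulum, were lower.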

How the data were processed

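Whole E11.5 mouse hearts, 1 control and 1 H2CKO library, were profiled by 10x 3′ single-cell RNA sequencing (read lengths of 28 and 91 bases). The authors deposited raw UMI count tables and embedding coordinates, which are score values used here only to mark 5408 and 6232 embedded barcodes. Cell Ranger 5.0.1, Seurat 4 and GRCm38.p6 are named in the submitters' processing notes. Barcodes below 500 genes or above 10% mitochondrial UMIs were dropped, leaving 9841 and 12141. Doublets (Scrublet) were left out: 1048 marked automatically in the control (10.6%), and the 607 highest scores in H2CKO (5.00%), where automatic marking found 0. Cells were clustered without the members (scanpy 1.11.5, leidenalg 0.10.2, 2000 variable genes, 30 components, resolution 1) and named from markers. UMIs were summed per group and library to CPM with exact Poisson 95% intervals. Ratios carry exact conditional intervals (scipy 1.17.1). Shares were also taken in cells thinned to 5000 UMIs. The calculations were tested on simulated data. Full values were given for 20 members chosen by name and for any other past 2-fold in a class with at least 100 cells per library, and for other lists the genes past 2-fold. Members, lists and rules were chosen with earlier results of these data known. Alternatives covered scaling (edgeR 4.0.16 TMM), filters, pseudocount, depth, doublets, clustering and gene span. Intervals cover counting error only, and a second library per genotype was not analysed here.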

Additional observations from a re-analysis of the deposited data

Results flagged for a closer look

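The same genotype contrast of Egr1, an immediate-early transcription factor gene, had opposite signs in 2 classes of cells. Its log2 ratio, H2CKO over control, was 1.497 in endothelial-like cells (24.7 and 78.9 CPM) and -1.44 in epicardial-like cells (277 and 98.9 CPM). With 1 library per genotype the difference between the classes was not tested. The endothelial-like control value rests on 49 UMIs in 24 of 120 cells. With cells named by their own markers, or pooled with cluster 14, the endothelial-like log2 ratio was -0.24 or -0.29, the same sign as in epicardial-like cells.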

How the results depend on the processing

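The counts of members past 2-fold were recomputed 139 times over 15 settings, and 122 stayed within 1.5 times the reported count. A count of 0 that stayed 0 was among these. Reported counts were 0 for both lists in cardiomyocyte-like and erythroid-like cells and for heat-shock genes in endothelial-like and mesenchymal-like cells. A count that stayed while its genes changed was included too. The share therefore says little of how stable the counts above 0 were. Pooling cluster 14 with the endothelial-like cells and leaving out each gene's highest cell were chosen after seeing the data. The endothelial-like immediate-early count of 5 became 2 at 100 CPM or more (Ier2, Zfp36l1), 2 with cells named by their own markers (Fosb, Jun) and 1 pooled with cluster 14 (Fosb). Under the last of these settings Egr1 there had a log2 ratio of -0.29, and under own markers -0.24, a change of sign in both. The mesenchymal-like Fosl2 passed 2-fold in 6 of 14 alternatives, and the count of 2 became 1 (Fosb) at 100 CPM or more, with doublets kept, with cells of the deposited embedding and with own markers. It stayed 2 with Nr4a1, higher, in place of Fosl2 with ratios centred on the median gene, with TMM factors and in thinned cells, and with Dusp1 in its place once the trend with gene span was taken out. In epicardial-like cells Dusp6 took the place of Fosl2 with doublets kept. The epicardial-like count of 4 became 2 with ratios centred on the median gene, with TMM factors (Fosb, Egr1 in both) and at 100 CPM or more (Fos, Egr1). The epicardial-like heat-shock count of 2 became 1 (Hspb1) at 100 CPM or more, at resolution 0.5 and without each gene's highest cell, and 0 with doublets kept. With cells below 1500 genes or above 5% mitochondrial UMIs dropped, cardiomyocyte-like counts of 0 became 1 for immediate-early (Ier3) and 1 for heat-shock genes (Hsph1). The erythroid-like immediate-early count of 0 became 1 (Gadd45g) with TMM factors. Beyond the settings' own construction, such as fewer genes measured, the cause was not tested. TMM moved the all-gene median log2 ratio from -0.26 to 0.04 in endothelial-like and from -0.19 to 0.25 in erythroid-like cells. Centring on the median gene gave 4 higher and 1 lower endothelial-like members, in place of 3 and 2, with Nr4a1 past 2-fold and Zfp36l1 no longer so. Over all settings run, the Fosb log2 ratio ran from -2.54 to -1.61 in endothelial-like and -1.58 to -1.25 in mesenchymal-like cells, Egr1 from -1.58 to -1.16 and Hspb1 from 0.77 to 1.63 in epicardial-like cells. No value could be had for erythroid-like cells of the embedding, nor for their immediate-early genes at 100 CPM or more. No paired analysis was possible because each genotype has 1 library. Genes under about 20 CPM are limited by depth, above all in the 120 endothelial-like control cells.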

Other observations

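The other clusters that stayed unnamed held members at these summed levels in the control and the H2CKO library. Cluster 6 (376 and 752 cells) held immediate-early genes at 1359 and 1169 CPM and heat-shock genes at 6394 and 6287 CPM. Cluster 17 (138 and 104 cells) held 2674 and 2448 CPM and 3695 and 4677 CPM. Cluster 15 (277 and 55 cells) held 1319 and 1073 CPM and 3602 and 3564 CPM. Cluster 8 (818 and 261 cells) held 1153 and 961 CPM and 5560.3 and 3959.9 CPM, and 645 and 170 of its cells had fewer than 5000 UMIs. Ier2, higher in H2CKO in the 7 groups described above, was lower in cluster 15, at 154 and 65.3 CPM.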
